A study of Homo sapiens with 6 samples.

Results

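The interferon-stimulated genes are transcripts whose production is switched on when a cell senses type I or type II interferon, together with the STAT and IRF transcription factors that carry the signal. Here they were read as a list of 43 named genes, taken by gene symbol without a cut on measured values. Earlier results of these data were known when the list was chosen. All 43 symbols were present among the 26364 in the deposited expression table. A673/TR/shEF is a derivative of the Ewing sarcoma cell line A673 in which doxycycline switches on an shRNA against the chimeric EWSR1::FLI1 mRNA. All 6 RNAseq libraries came from these engineered cells, grown with blasticidin and zeocin. In 3 of them (EWSR1::FLI1 high) the cells were untreated, and in the other 3 (EWSR1::FLI1 low) they received 1 µg/mL doxycycline for 72 h. The comparison asks how the RNA levels of these genes differed between cells with high and low levels of the fusion. Treated cells differed from untreated cells both in doxycycline and in the fusion, and these cannot be told apart in this design.

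Interferons are secreted proteins. Type I interferons bind the receptor made of IFNAR1 and IFNAR2, and the JAK1 and TYK2 kinases then phosphorylate STAT proteins, among them STAT2, which joins IRF9 in the complex ISGF3. ISGF3 binds the interferon-stimulated response element (ISRE) in the promoters of its targets. Interferon gamma signals through IFNGR1 and IFNGR2 to promoters with gamma-activated sequences (GAS), and IRF1 is a classical target of that branch. The products degrade or bind viral RNA, block membrane fusion, trap virions or tag proteins with ISG15, and many of them are also present at a basal level in tumour cells.

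The libraries held between 6980361 and 16658933 reads on genes, recovered from the deposited values. FLI1, whose 3' part lies in the fusion transcript, stood at 11.3, 12.7 and 14.2 FPKM (fragments per kilobase of transcript, scaled by library depth, so that genes can be compared per length) in the EWSR1::FLI1 high libraries. In the EWSR1::FLI1 low libraries it stood at 2.91, 4.29 and 3.68 FPKM (log2 fold change -1.57 ± 0.18 (SE), adjusted p = 0.000676). Of 6 Ewing sarcoma marker genes, 5 were lower in the EWSR1::FLI1 low cells by the same test. The 6 leukocyte markers, PTPRC and CD3E among them, stayed at or below 0.964 FPKM in every library. EWSR1::FLI1 low replicate 1 stood apart, with an FPKM sum over all genes of 255956, against 334614 to 366060 in the other 5 libraries. The labels do not settle whether the replicates are separate clones or repeated experiments, so the p-values measure only the spread between these samples.

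Most of the interferon-stimulated genes that could be tested had a higher fitted level in EWSR1::FLI1 low cells, but few passed the test. IFIT3, IRF9, STAT2, IFIT2, DDX60, SAMD9L, BST2 and IFITM3 rose, with mean FPKM between 2.15 and 4.20 times that of EWSR1::FLI1 high cells. ISG15, IFIT1 and MX1, the genes most often used to mark an interferon response, were not called. No member was called lower, where 3.37% of all genes tested were. USP18, HERC5 and OAS3 had every EWSR1::FLI1 low library below every EWSR1::FLI1 high library, as did 23.6% of all genes tested.

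Of the 43 members, 36 had a mean of at least 0.5 FPKM over the 6 libraries and were tested with limma on log2(FPKM + 1). The other 7, DHX58, OAS2, OASL, MX2, IFI27, EPSTI1 and TRIM22, were too low to test. With an adjusted p under 0.01 as the limit, 8 of the 36 were higher, 0 were lower and 28 were not called. Over all 15504 genes tested, 4.51% were called higher and 3.37% lower by the same rule. At an unadjusted p under 0.05, 19 members were higher and 3 lower, where 15.6% of all genes were higher and 18.7% lower. Limma-voom on recovered reads called 11 members higher and 0 lower with library totals (8.03% and 7.39% of all genes), and 8 higher and 0 lower with the authors' size factors (6.1% and 5.06%). The log2 fold change was positive for 31 members and negative for 5, with a median of 0.55, where the median over all genes tested was -0.05. In 19 members every EWSR1::FLI1 low library lay above every EWSR1::FLI1 high library, in 3 below, and in 14 the groups overlapped, where 17.5% of all genes lay above and 23.6% below. The 4 members IRF7, ISG20, HERC6 and MX1 passed the filter with an EWSR1::FLI1 high mean under 0.5 FPKM, so these counts are descriptions only. RNA from a bulk culture cannot tell fewer expressing cells from less RNA per cell.

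The number called depended on single libraries. This held for all genes tested as well as for the members, and the ranges over all genes are given in the closing section. Without EWSR1::FLI1 high replicate 1 the only member called was IFIT3, without high replicate 2 there was 0, and without high replicate 3 the only one was IRF9. Without EWSR1::FLI1 low replicate 1 it was 13, without low replicate 2 it was 4, and without low replicate 3 it was 3. Among all genes called in each of these fits, 37.6% (without low replicate 3) to 67.2% (without high replicate 3) were higher. The member counts were not set against the share of all genes called in each fit, so they are descriptions only. The 8 called members were positive in all 16 alternative fits. IFIT3 and IRF9 passed the limit in 14 of them and STAT2 in 13, while DDX60, IFIT2 and SAMD9L passed in 10, IFITM3 in 9 and BST2 in 8.

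**Figure D1:**
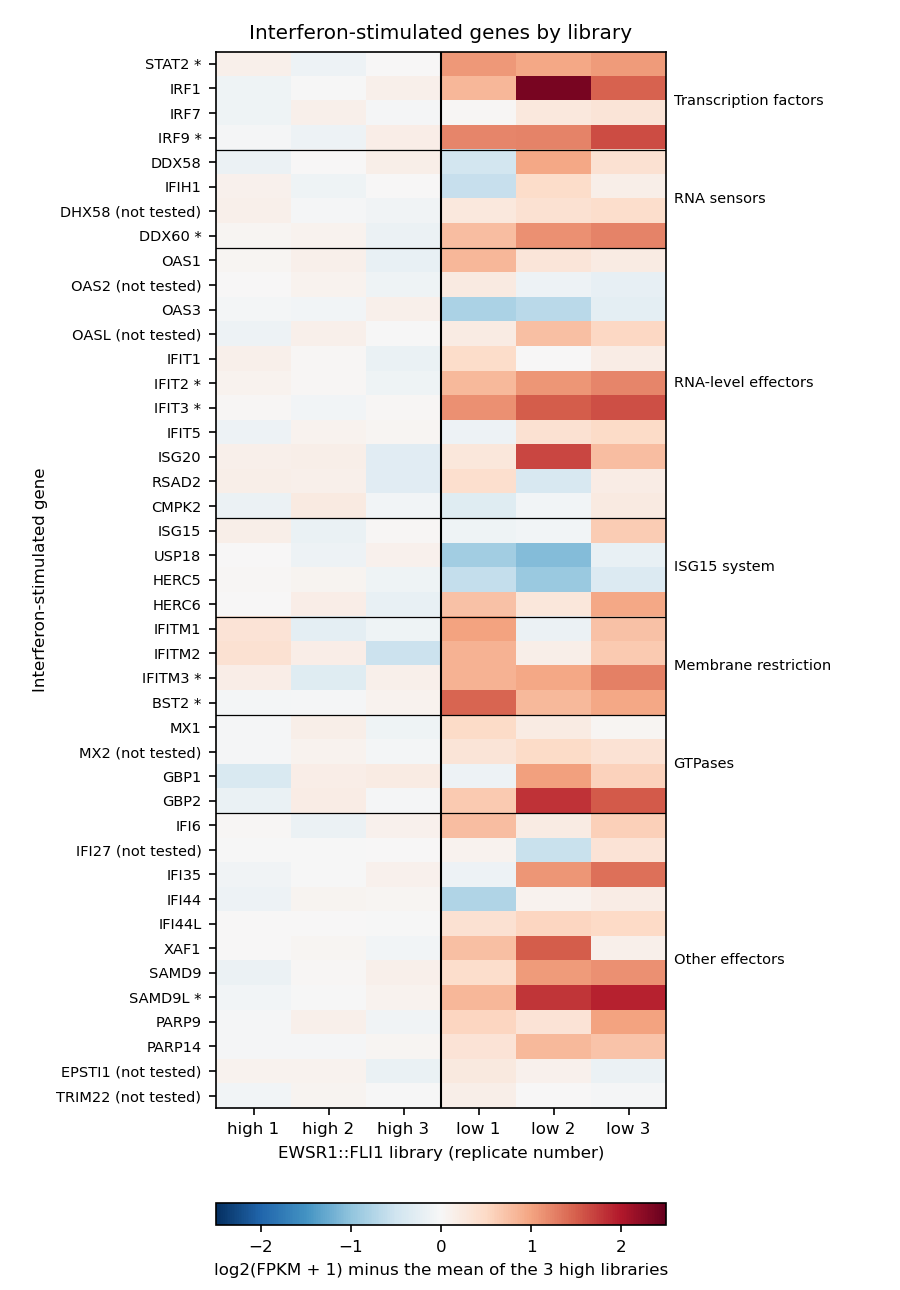
Level of each of the 43 members (rows, grouped by role) in the 6 libraries (columns), as log2(FPKM + 1) minus the mean of the 3 EWSR1::FLI1 high libraries; an asterisk marks the 8 members called higher. Most rows are red in the 3 EWSR1::FLI1 low columns, while OAS3, USP18 and HERC5 are blue in all 3.

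Within a single EWSR1::FLI1 low library the members could be set against the other genes of the same library. EWSR1::FLI1 low replicate 1 had 25 of 36 members above the EWSR1::FLI1 high mean, replicate 2 had 29 and replicate 3 had 33. The median difference from that mean, on the log2(FPKM + 1) scale, was 0.47, 0.50 and 0.65 for the members. For all genes tested it was -0.16, -0.06 and 0.02. Replicate 3, which also had the most reads, was the highest of the EWSR1::FLI1 low libraries for 50% of the members and for 48.4% of all genes tested. Its part in the result was not tested beyond the fit without it.

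The promoters of 8 members are shown first, so that the elements through which interferons act can be read beside the values. RefSeq promoter windows, from 250 bases before to 50 bases after the transcription start on GRCh38.p14, were matched for 33 of the 43 members. An ISRE-type motif (GAAANNGAAA, or TTTCNNTTTC on the other strand, overlapping matches counted separately) was found in the windows of 23 of the 33. It was found for 4.38% of the 27305 genes with a window. A GAS-type motif (TTCNNNGAA, the same on both strands) was found for 11 of the 33, against 9.38% of all genes. The members were listed as interferon-induced genes, so these shares do not bear on the difference between high and low cells. A match is a string of letters and not a measured binding site. Members with more than 1 window, 8 in all, were counted once.

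Each sequence below is the 160 bases that end just before the start, read 5' to 3' on the strand of the gene, with motif matches in capitals. ISG15 (chr1:1013337-1013496, plus strand) and IFIT1 (chr10:89392463-89392622, plus) are markers that were not called, and both carry a pair of ISRE-type matches, which overlap in ISG15.
ISG15: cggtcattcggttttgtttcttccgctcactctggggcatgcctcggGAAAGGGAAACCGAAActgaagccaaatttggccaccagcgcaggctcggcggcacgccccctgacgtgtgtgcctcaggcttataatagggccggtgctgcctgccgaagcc
IFIT1: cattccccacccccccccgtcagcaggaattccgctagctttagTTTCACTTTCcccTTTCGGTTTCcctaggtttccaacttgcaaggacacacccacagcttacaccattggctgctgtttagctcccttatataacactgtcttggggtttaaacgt

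IFIT3 (chr10:89332369-89332528, plus, the second of its 2 windows), IFITM3 (chr11:320861-321020, minus), BST2 (chr19:17405631-17405790, minus) and DDX60 (chr4:168318753-168318912, minus) were called higher and also carry ISRE-type matches. In BST2 a GAS-type match runs into a pair of overlapping ISRE-type matches, and both BST2 and DDX60 hold a GAS-type match in addition.
IFIT3: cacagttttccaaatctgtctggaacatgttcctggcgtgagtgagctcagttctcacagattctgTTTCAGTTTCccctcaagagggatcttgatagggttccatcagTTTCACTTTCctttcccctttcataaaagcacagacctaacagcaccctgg
IFITM3: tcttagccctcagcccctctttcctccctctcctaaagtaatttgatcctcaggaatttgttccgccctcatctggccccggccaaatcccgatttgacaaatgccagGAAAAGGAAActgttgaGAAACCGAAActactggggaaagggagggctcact
BST2: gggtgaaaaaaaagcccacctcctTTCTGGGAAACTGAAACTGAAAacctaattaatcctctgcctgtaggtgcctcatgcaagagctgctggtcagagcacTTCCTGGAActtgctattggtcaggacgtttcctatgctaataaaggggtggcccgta
DDX60: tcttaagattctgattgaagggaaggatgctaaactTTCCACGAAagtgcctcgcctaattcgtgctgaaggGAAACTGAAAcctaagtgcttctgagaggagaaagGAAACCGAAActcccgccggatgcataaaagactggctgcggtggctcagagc

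IRF9 (chr14:24161105-24161264, plus) and IRF1 (chr5:132490774-132490933, minus) are shown because their windows hold a GAS-type match and no ISRE-type match.
IRF9: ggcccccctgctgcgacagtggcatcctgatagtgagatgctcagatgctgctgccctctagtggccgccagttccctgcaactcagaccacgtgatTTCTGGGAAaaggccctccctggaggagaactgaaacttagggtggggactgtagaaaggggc
IRF1: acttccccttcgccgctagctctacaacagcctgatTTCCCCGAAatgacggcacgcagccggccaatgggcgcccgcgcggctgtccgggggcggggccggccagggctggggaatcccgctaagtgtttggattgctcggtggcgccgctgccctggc

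Both motifs were found among called and uncalled members. Of the called members with a window, 4 of 7 had an ISRE-type match, of those not called 17 of 24, and of those not tested 2 of 2. For the GAS-type motif the counts were 3 of 7, 6 of 24 and 2 of 2. The windows of STAT2 and SAMD9L, both called higher, held neither string of letters.

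**Figure D2:**
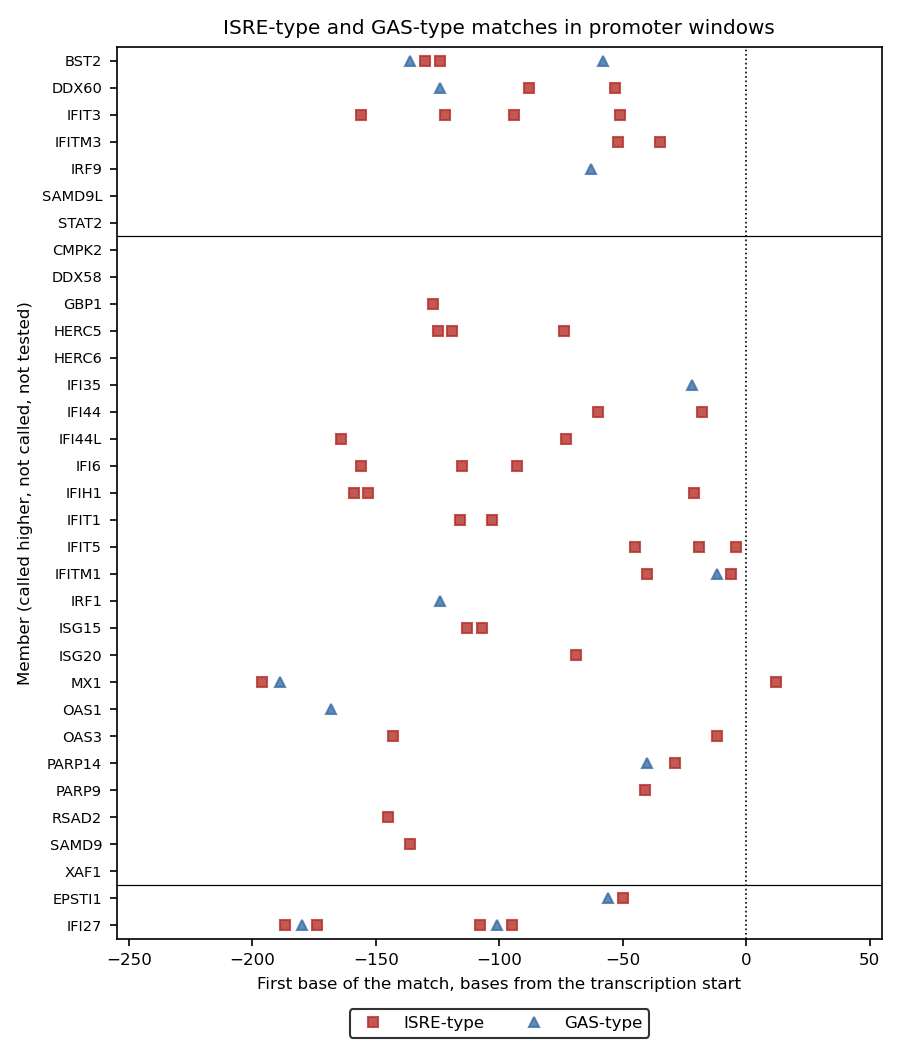
Positions of ISRE-type (squares) and GAS-type (triangles) matches relative to the transcription start (x axis, bases) in the promoter windows of 33 members (y axis, members called higher at the top, then not called, then not tested), all windows of a member on one line. Nearly all matches lie before the start, among called and uncalled members.

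Among the transcription factors, both ISGF3 subunits on the list rose. STAT2 (chromosome 12, 56735381 to 56753987 on GRCh37, minus strand) measured 7.12, 5.76 and 6.41 FPKM in the untreated libraries, against 14.6, 13.5 and 14.5 FPKM in the treated ones. The groups did not overlap, and the 3 treated values lay close together (log2 fold change 1.03 ± 0.16 (SE), adjusted p = 0.00331). IRF9 (chromosome 14, 24630443 to 24637252, plus strand), the DNA-binding subunit, went from 4.20, 3.89 and 5.0 to 11.5, 11.6 and 15.5 FPKM (1.36 ± 0.18, adjusted p = 0.00150).

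In the reported fit IRF1, a factor that activates interferon-responsive promoters, had the largest change of the 36 members but did not pass the limit. The ranking depended on the pseudocount: at 0.1 the log2 fold change was 1.84 for IRF1, 1.91 for SAMD9L and 1.90 for ISG20. IRF1 levels were 2.23, 2.44 and 2.76 FPKM in untreated cells and 5.13, 16.9 and 8.58 FPKM in treated cells. All treated values lay above all untreated ones, and they differed widely among themselves (log2 fold change 1.55 ± 0.34, adjusted p = 0.0140). It was called higher in 6 of 16 alternatives, among them both limma-voom fits and the fit without EWSR1::FLI1 low replicate 1 (adjusted p = 0.00131). IRF7, the factor that amplifies type I interferon production, stayed low at 0.357, 0.587 and 0.423 against 0.473, 0.741 and 0.810 FPKM, with overlapping groups (0.20, 95% interval -0.19 to 0.59, adjusted p = 0.448).

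The RNA sensors did not move together. DDX60, a helicase linked to sensing of viral RNA, rose from 2.53, 2.64 and 2.08 to 4.83, 6.57 and 7.05 FPKM, with no overlap (1.05 ± 0.18, adjusted p = 0.00474). IFIH1, which encodes the double-stranded RNA sensor MDA5, and DDX58, which encodes RIG-I, had overlapping groups. Their log2 fold changes were 0.01 (adjusted p = 0.979) and 0.29 (adjusted p = 0.568), and in both EWSR1::FLI1 low replicate 1 was the lowest of the 6 libraries and replicate 2 the highest. DHX58, which encodes the regulator LGP2, had between 1 and 21 reads a library and was not tested.

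The IFIT genes, neighbours on chromosome 10 whose products bind viral RNA, split into a pair that rose and a pair that was not called. IFIT3 (91087064 to 91137230 on GRCh37, plus strand) stood at 6.95, 6.45 and 6.91 FPKM without doxycycline and at 16.1, 21.0 and 22.9 FPKM with it. The groups lay far apart, and its adjusted p was the lowest among the members (1.42 ± 0.19, adjusted p = 0.00123). IFIT2 (91043451 to 91069028, plus strand) went from 2.84, 2.66 and 2.33 to 5.31, 6.70 and 7.38 FPKM, again without overlap (1.04 ± 0.17, adjusted p = 0.00391). IFIT1 (91152303 to 91166244, plus strand) was at 1.75, 1.59 and 1.26 against 2.47, 1.55 and 1.86 FPKM. Its groups overlapped, and the 95% interval of its log2 fold change ran from -0.19 to 0.62 (0.22, adjusted p = 0.431), below the whole interval of IFIT3, which ran from 1.00 to 1.84. IFIT5 was among the 5 most abundant members, at 14.3, 16.7 and 16.2 against 14.3, 20.8 and 22.3 FPKM (0.25, adjusted p = 0.448).

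Of the other members that act on RNA or nucleotides, none was called. The OAS enzymes make oligoadenylates that activate RNase L, and their tested members pointed in opposite directions. OAS3 was at 3.09, 2.99 and 3.56 FPKM against 1.44, 1.63 and 2.53 FPKM, all treated values below all untreated ones (-0.57 ± 0.18, adjusted p = 0.0606). OAS1 was at 1.39, 1.51 and 1.04 against 3.11, 1.84 and 1.65 FPKM, all above (0.44 ± 0.21, adjusted p = 0.163). The exonuclease ISG20 had a log2 fold change of 0.91 (adjusted p = 0.0812) with 3 to 104 reads a library. RSAD2, which encodes viperin, and its neighbour CMPK2 were at 0.06 and -0.05 on the log2 scale, with overlapping groups.

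**Figure D3:**
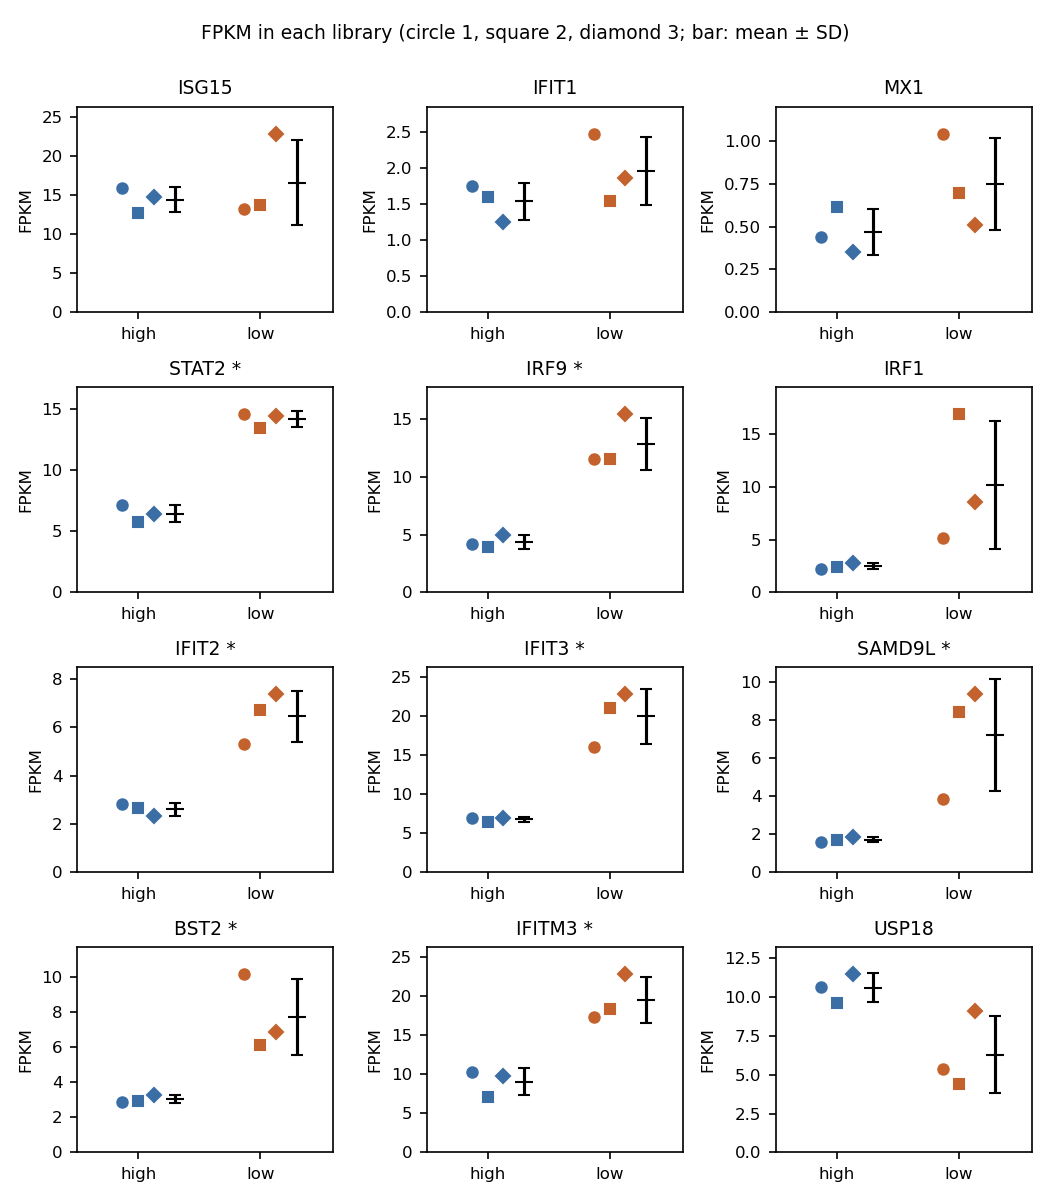
FPKM (y axis, from 0) of 12 members in each library of the EWSR1::FLI1 high and low groups; symbols mark the replicate number, bars the mean ± SD (n = 3), and an asterisk the members called higher. The treated points lie above all untreated points in IFIT3, STAT2 and IRF9, overlap with them in ISG15, IFIT1 and MX1, and lie below them in USP18.

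The ISG15 system was the only role group with a negative median log2 fold change (-0.24, 4 members). ISG15, the ubiquitin-like modifier, gave 15.9, 12.6 and 14.7 FPKM untreated and 13.2, 13.7 and 22.8 FPKM treated. Only replicate 3 of the treated libraries exceeded all the untreated ones (0.15, 95% interval -0.38 to 0.69, adjusted p = 0.691). USP18, which removes ISG15 from proteins and dampens signalling at IFNAR2, was at 10.7, 9.62 and 11.5 against 5.36, 4.43 and 9.11 FPKM. Treated values were all lower, but the test did not pass (-0.72 ± 0.24, adjusted p = 0.0676). HERC5, the main ligase for ISG15 in human cells, was at 2.30, 2.39 and 1.98 against 1.12, 0.693 and 1.53 FPKM (-0.63 ± 0.19, adjusted p = 0.0462). Its relative HERC6 went the other way, at 0.368, 0.516 and 0.199 against 1.24, 0.658 and 1.65 FPKM (0.66 ± 0.21, adjusted p = 0.0574). HERC6 had 6 to 100 reads a library and passed the filter only through its treated values, with an untreated mean of 0.361 FPKM. Of these 4 members limma called 0, with 1 higher and 2 lower at an unadjusted p under 0.05 (15.6% and 18.7% of all genes), and limma-voom also called 0. With sample quality weights in the fit, HERC5, USP18 and OAS3 were called lower, as were 14.6% of all genes.

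The enzymes of the earlier steps of ISG15 conjugation lie outside the list. UBA7, the activating enzyme, rose from 0.834, 0.795 and 0.779 to 3.19, 1.84 and 2.30 FPKM (0.92 ± 0.18, adjusted p = 0.00950). UBE2L6, the conjugating enzyme, rose from 11.1, 10.0 and 8.67 to 19.5, 19.6 and 26.7 FPKM (1.06 ± 0.20, adjusted p = 0.00686). In both genes the groups did not overlap. UBA7 passed the limit in 6 of 16 alternatives and UBE2L6 in 10.

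At the membrane, BST2 and IFITM3 rose. BST2 (chromosome 19, 17513748 to 17516439 on GRCh37, minus strand) encodes tetherin, which holds budding virions at the cell surface, and went from 2.90, 2.95 and 3.29 to 10.2, 6.10 and 6.86 FPKM (1.08 ± 0.20, adjusted p = 0.00692). Its highest value was in EWSR1::FLI1 low replicate 1, which was the highest treated library for 9 of the 36 tested members (25%) and for 25.4% of all genes tested. IFITM3 (chromosome 11, 319676 to 329475, minus strand), which blocks fusion of viruses in endosomes, went from 10.3, 7.14 and 9.86 to 17.3, 18.4 and 22.9 FPKM (1.03 ± 0.20, adjusted p = 0.00889). The neighbouring IFITM1 was at 22.5, 14.5 and 16.2 against 36.2, 15.6 and 29.7 FPKM, and IFITM2 at 1.57, 1.2 and 0.354 against 2.62, 1.17 and 2.11 FPKM. Both overlapped between groups, with adjusted p = 0.260 for IFITM1 and 0.194 for IFITM2. The IFITM genes are near-identical in sequence, so reads may be divided between them in ways the values do not show.

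Of 3 GTPases tested, limma called 0, where 4.51% of all genes were called higher and 3.37% lower. At an unadjusted p under 0.05, 1 was higher (15.6% of all genes). Limma-voom called 1 higher, GBP2, where 8.03% of all genes were called higher with library totals and 6.1% with the authors' size factors. MX1, a dynamin-like restriction factor and a standard marker, was near the limit of the filter at 0.443, 0.617 and 0.353 against 1.04, 0.700 and 0.508 FPKM, which came from 10 to 34 reads a library (0.24, 95% interval -0.17 to 0.66, adjusted p = 0.382). GBP2, a guanylate-binding protein induced mainly by interferon gamma, gave 5.86, 7.83 and 6.62 FPKM untreated and 11.1, 26.2 and 21.4 FPKM treated. The groups did not overlap (1.33 ± 0.29, adjusted p = 0.0141), and it was called higher in 7 of 16 alternatives, the fit without EWSR1::FLI1 low replicate 1 among them. GBP1 overlapped between groups (0.49, adjusted p = 0.289) and shares sequence with GBP3.

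Among the remaining effectors, SAMD9L rose and its neighbour SAMD9 did not pass the limit. SAMD9L (chromosome 7, 92759369 to 92777698 on GRCh37, minus strand), a restrictor of poxviruses and of cell growth, went from 1.58, 1.68 and 1.88 to 3.83, 8.40 and 9.35 FPKM. Replicate 1 of the treated libraries was well below the other two, yet above all untreated values (1.52 ± 0.27, adjusted p = 0.00619). SAMD9, next to it on the same strand, had mean levels of 5.53 ± 0.616 and 11.2 ± 2.97 FPKM (SD, n = 3 each; 0.88 ± 0.22, adjusted p = 0.0234) and passed the limit in 6 of 16 alternatives. PARP14, which ADP-ribosylates proteins, was one of the most abundant members at 15.0, 15.1 and 15.9 against 19.6, 27.8 and 25.7 FPKM (0.62 ± 0.19, adjusted p = 0.0489), and it was called higher in 5 of 16 alternatives.

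IFI44 had the highest mean level of all members, at 29.7, 33.9 and 33.6 against 18.8, 34.5 and 36.7 FPKM. Its groups overlapped and only EWSR1::FLI1 low replicate 1 was lower (-0.16, 95% interval -0.75 to 0.43, adjusted p = 0.709). Its paralog and neighbour IFI44L was at 3.39, 3.41 and 3.35 against 4.69, 5.34 and 5.19 FPKM, with tight and separate groups (0.47 ± 0.15, adjusted p = 0.0560). IFI6, a mitochondrial and ER membrane protein, was at 13.7, 12.1 and 14.6 against 23.8, 15.7 and 20.7 FPKM (0.53 ± 0.20, adjusted p = 0.0982). PARP9, XAF1 and IFI35 had log2 fold changes of 0.63, 0.79 and 0.79, and none passed the limit.

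The 7 untested members had at most 34 reads in any library. In DHX58, OASL and MX2 all treated values lay above all untreated ones, and in OAS2, IFI27, EPSTI1 and TRIM22 they overlapped. IFI27, often among the most responsive genes to type I interferon, had 4, 3 and 3 reads in EWSR1::FLI1 high and 4, 0 and 11 reads in EWSR1::FLI1 low.

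**Figure D4:**
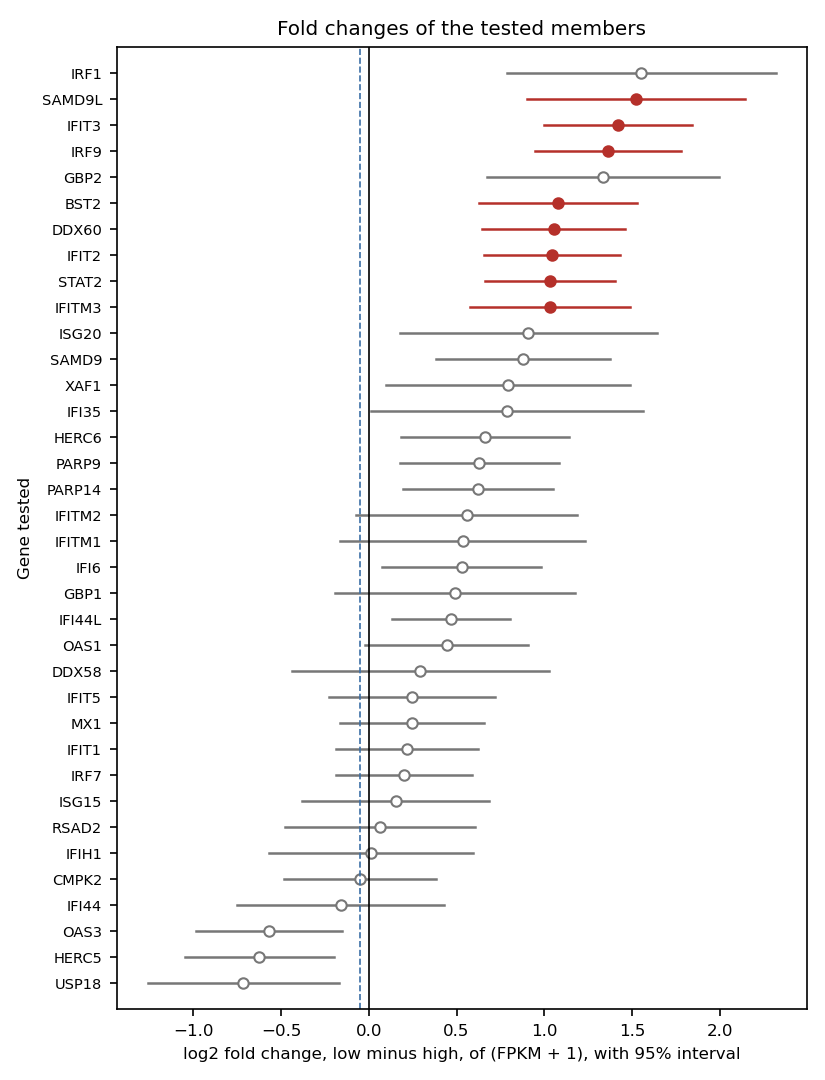
Log2 fold change of (FPKM + 1), EWSR1::FLI1 low minus high, with its 95% interval (x axis) for the 36 tested members (y axis, ordered by size); filled red points are the 8 called higher, and the dashed line is the median of all genes tested, -0.05. The values run from -0.72 in USP18 to 1.55 in IRF1, and the intervals of ISG15, IFIT1 and MX1 include 0.

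Upstream of these genes, the ligands were scarcely detected. None of 21 interferon genes exceeded 1.05 FPKM or 10 reads in any library, and only 2 passed the filter, IFNA5 and IFNA21, neither of them called or under an unadjusted p of 0.05. IFNB1, the interferon most non-immune cells make first, had 1, 2 and 0 reads in EWSR1::FLI1 high and 0, 1 and 2 in EWSR1::FLI1 low. A change in the ligands was not detectable at this depth. The receptors were expressed in both groups and were not called. IFNAR1 was at 15.1, 14.8 and 18.3 against 12.6, 24.1 and 20.0 FPKM (0.18, 95% interval -0.38 to 0.74, adjusted p = 0.654), and IFNAR2 at 5.45, 4.88 and 4.98 against 4.20, 7.21 and 5.01 FPKM (0.06, adjusted p = 0.872).

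The transcripts of the interferon gamma receptor stood at higher FPKM than those of the type I receptor. IFNGR1 was at 33.6, 37.8 and 42.6 against 36.3, 85.9 and 58.7 FPKM (0.57, adjusted p = 0.204). Without EWSR1::FLI1 low replicate 1 its log2 fold change was 0.89 and passed the limit, and over all fits without 1 library it ran from 0.28 to 0.89. IFNGR2 was at 31.9, 31.9 and 33.9 against 34.4, 58.2 and 51.1 FPKM, above every untreated value but not called (0.51, adjusted p = 0.140). In 4 of 16 alternatives it was called higher, limma-voom with library totals among them. JAK1, named here after its values were seen, was at 254, 251 and 269 against 147, 162 and 166 FPKM, with all treated values lower (-0.70 ± 0.15, adjusted p = 0.0129). It missed the limit in the reported fit but was called lower in 6 of 16 alternatives, both limma-voom fits among them, and without EWSR1::FLI1 low replicate 1 its adjusted p was 0.00285.

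The suppressors of cytokine signalling, feedback inhibitors that act on the JAK kinases, rose. SOCS3 went from 4.14, 5.0 and 6.41 to 21.4, 20.5 and 25.6 FPKM (1.94 ± 0.20, adjusted p = 0.000370) and was called in all 16 alternatives. SOCS1 went from 0.470, 0.619 and 0.531 to 1.76, 2.21 and 2.11 FPKM (0.97 ± 0.16, adjusted p = 0.00355) and was called in 11 of the 16. Both are also induced by cytokines other than interferons. In the reported limma fit they were the 2 genes called higher among 14 tested of the receptor and JAK-STAT list, and 0 were called lower (4.51% and 3.37% of all genes). At an unadjusted p under 0.05, 4 of the 14 were higher and 1 lower (15.6% and 18.7% of all genes). Limma-voom with library totals called 3 higher and 1 lower (8.03% and 7.39% of all genes). With the authors' size factors it called 2 higher and 1 lower (6.1% and 5.06%), the lower one being JAK1 in both.

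**Figure D5:**
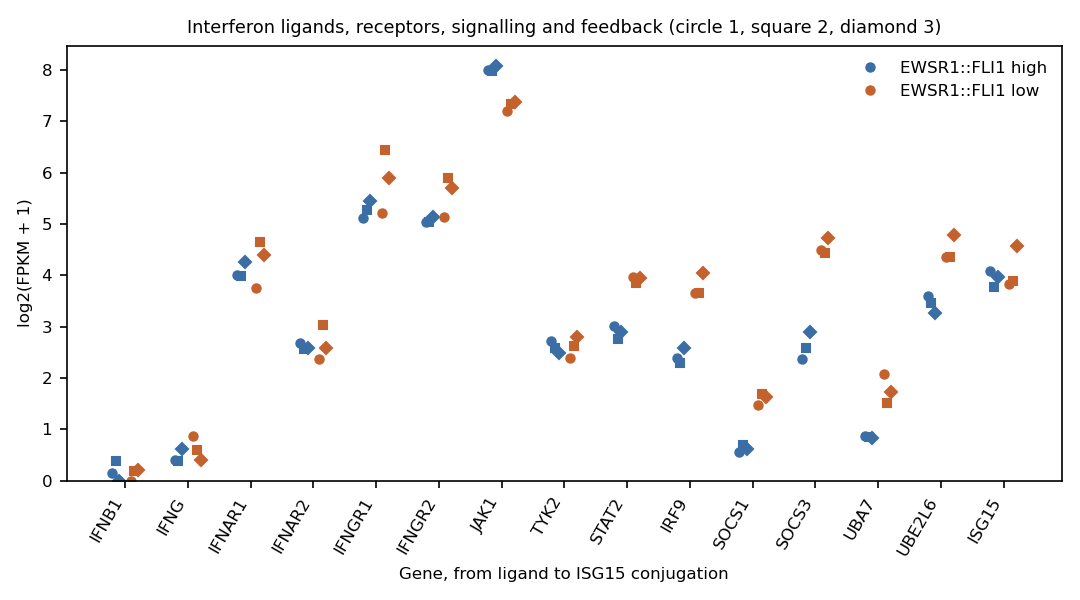
Levels, as log2(FPKM + 1) (y axis), of 15 genes of the pathway from ligands to ISG15 conjugation (x axis) in each EWSR1::FLI1 high (blue) and low (orange) library, with symbols for the replicate number. Ligands lie near 0 in both groups, IFNAR1, IFNAR2, TYK2 and ISG15 overlap, and STAT2, IRF9, SOCS1, SOCS3, UBA7 and UBE2L6 are higher in all 3 treated libraries.

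In all, 100 further genes of the pathway were read from lists, of which 68 were tested, 6 were called higher and 0 lower (4.51% and 3.37% of all genes). At an unadjusted p under 0.05 the numbers were 17 and 4 (15.6% and 18.7% of all genes). Among those 17, PARP10, TRIM14 and APOL1 passed the filter with EWSR1::FLI1 high means of only 0.304, 0.438 and 0.263 FPKM. The counts in this paragraph are therefore descriptions only. Limma-voom on recovered reads called 12 and 3 with library totals (8.03% and 7.39% of all genes), and 7 and 2 with the authors' size factors (6.1% and 5.06%). Of the 35 further interferon-inducible genes, 30 were tested and 4 rose, with a median log2 fold change of 0.45. Besides UBA7 and UBE2L6 these were SLFN5 and IFI30. SLFN5, a Schlafen family member, went from 4.39, 5.75 and 4.75 to 17.6, 35.4 and 33.2 FPKM (2.26 ± 0.27, adjusted p = 0.000748), a larger change than in any member. IFI30, a lysosomal thiol reductase of antigen processing, went from 0.927, 0.732 and 1.13 to 2.63, 6.40 and 7.12 FPKM (1.65 ± 0.29, adjusted p = 0.00555). SLFN5 passed the limit in all 16 alternatives and IFI30 in 10. Of 18 tested genes that sense nucleic acids, 0 were called by limma, with 1 higher and 2 lower at an unadjusted p under 0.05, where 15.6% and 18.7% of all genes were, and their median was -0.03. Limma-voom called 1 higher and 2 lower of them with library totals (8.03% and 7.39% of all genes), and 0 higher and 1 lower with the authors' size factors (6.1% and 5.06%). Of the 4 other IRF genes tested, 0 were called, with 1 higher at an unadjusted p under 0.05 (15.6% of all genes). Limma-voom with library totals called 1 of these 4 higher (8.03% of all genes).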

How the data were processed

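RNA from 3 EWSR1::FLI1 high and 3 EWSR1::FLI1 low samples, depleted of ribosomal RNA, was sequenced as paired-end ScriptSeq v2 libraries. The submitters' processing notes name STAR 2.5.0b, bedtools 2.17.0, Cufflinks 2.2.1, DESeq2 1.6.3 and GRCh37. The gene annotation and the use of strand are not given in the sources used here. The FPKM values that the authors deposited, by symbol and for each library, were already scaled between libraries. The authors also deposited their DESeq2 comparison, which holds a mean signal per gene (normalized counts), log2 fold changes, standard errors, test statistics and p-values. Of these only the mean signal was used, to recover reads (100% of the values whole within 0.1 reads).

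After genes averaging under 0.5 FPKM over the 6 libraries were set aside, limma 3.58.1 in R 4.3.3 (lmFit, eBayes with trend) was fitted on log2(FPKM + 1), a scale that understates the change of low genes. P-values were adjusted by Benjamini-Hochberg over the 15504 genes, and genes under an adjusted p of 0.01 were called. The recovered reads entered only the limma-voom alternatives. The fits were run on simulated data with a spread taken from the EWSR1::FLI1 high libraries. There the reported fit recovered 78% of genes changed by 1 on the log2 scale. The changed genes were drawn from the more abundant genes only, so this share does not cover members with few reads, such as MX1. The wider spread of the EWSR1::FLI1 low libraries was not simulated.

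Samples were grouped by their titles and treatments. The members, pathway lists, naming rule and motifs were chosen with earlier results of these data known. Values in every sample are given for the markers, the called members, the transcription factors, the IFITM genes, the 5 most abundant members, each called pathway gene, the receptors and IFNB1; 1 further gene of the naming rule is not reported here. Other members with values were picked for their role group. With 3 against 3 samples an exact permutation test of a single gene cannot go below 0.1. Depth ranged from 6980361 to 16658933 reads, which covers counting error only. Gene coordinates come from GENCODE lifted to GRCh37 (42 of 43 members matched), and promoters from RefSeq on GRCh38.p14. Alternatives changed the pseudocount (0.1), the filter, the scaling, the trend, sample weights, a replicate block, the limit and single libraries, and limma-voom was run with library totals. Limma-voom with the authors' size factors was added after seeing the data.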

Additional observations from a re-analysis of the deposited data

How the results depend on the processing

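All 8 called members kept their direction in all 16 alternative fits, and 7 of the 36 tested members changed sign in at least 1. Members called higher numbered 3 with no filter on low values and 18 with sample quality weights, which also called 3 lower, and 1 member was lower at an adjusted p under 0.05. Leaving out single libraries gave 0 to 13 members called higher. The replicate numbers were treated as names only: same-numbered libraries deviated together with r of 0.27, 0.09 and 0.12, against -0.29 to 0.19 for other numbers. With the replicate block, 11 members were higher, 9 pathway genes were higher and 1 lower. Of all genes 786 were lower in that fit, and 53.8% of all genes it called were higher.

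Of all genes, 456 were higher and 297 lower with no filter, 1245 and 1146 by limma-voom with library totals, 2488 and 2257 with sample quality weights, and 1530 and 1537 at an adjusted p under 0.05. The number lower was 813 with median-ratio scaling, 1000 with quantile normalization and 784 by limma-voom with the authors' size factors. Without single libraries 308 to 1527 were higher and 157 to 807 lower. Of the pathway genes, 3 were higher with no filter and 1 lower at a mean of at least 1 FPKM. There were 10 higher and 1 lower under both median-ratio and quantile scaling, 12 and 3 by limma-voom with library totals, 26 and 3 with sample quality weights, and 11 and 3 at an adjusted p under 0.05. Limma-voom with the authors' size factors called 2 lower, and single libraries left out gave 2 to 16 higher and 0 to 1 lower.

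The log2 fold changes that changed sign were not called in any of those fits. IFIH1 was -0.011 and RSAD2 -0.066 with quantile normalization, and RSAD2 -0.35, IFITM1 -0.0047 and IFI44 0.078 with sample quality weights. CMPK2 was 0.061 by limma-voom with library totals. Over the fits without 1 library, the range was -0.21 to 0.30 for IFIH1, -0.11 to 0.30 for RSAD2, -0.18 to 0.074 for CMPK2, -0.087 to 0.29 for ISG15, -0.33 to 0.14 for IFI44, -0.043 to 0.67 for DDX58, -0.012 to 0.43 for IFNAR1 and -0.13 to 0.20 for IFNAR2. The cause of these differences was not tested. Members with few reads, such as MX1 and the 7 untested ones, are limited by depth.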
